A study of Tachysurus vachellii and Tachysurus fulvidraco x Tachysurus vachelli and Tachysurus fulvidraco with 9 samples.

Results

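Complement is the set of plasma proteins, made mainly by the liver, that tag and pierce microbes. The complement components and regulators described here were 107 of the 57710 rows of a table of assembled transcripts from catfish liver. A row entered where its description speaks of a complement component, factor, receptor or regulatory protein, or where its Name begins with MASP, and where it reached 1 TPM in at least 3 of 9 libraries. TPM is a transcript level scaled by transcript length and by library. The wording matched 109 rows, 101 of the members by description and 6 by a Name of MASP alone. Of the other 2 rows, described as a C1q receptor and as C3, the third-highest library reached 0.75 and 0.97 TPM, and the 2 members nearest to the minimum reached 1.0 and 1.09 TPM. Of the members, 65 had a gene Name and 42 had none.

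The 9 libraries held polyadenylated RNA of juvenile liver, 3 each from darkbarbel catfish Pelteobagrus vachelli, yellow catfish P. fulvidraco, and the hybrid of P. fulvidraco mothers with P. vachelli fathers. Eggs of the 3 lines were fertilised artificially and kept at 28 °C until hatching, and the labels give no further treatment. Each line was raised in its own 3 aquaria of 200 fish, so that line and aquaria cannot be told apart. The labels do not give the fish behind a library, its sex or whether fish were pooled, so that p-values measure the spread between libraries, which may be technical. The labels name liver as the tissue, although a line of the extraction protocol speaks of adipose type. Hepatocyte markers such as apolipoproteins, transferrin and fibrinogen, 13 Names in all, summed to 40589.6 to 44332 TPM in P. vachelli, 69246 to 75461 TPM in the hybrid and 53664 to 60496 TPM in P. fulvidraco. HPX, hemopexin, was the largest of them in the hybrid, with means of 4639 TPM, 24026 TPM and 12628 TPM in the same order. FGB, a fibrinogen gene among them, was lower in every hybrid library than in either parent. Of the markers, 2 were higher and 9 lower in P. vachelli than in P. fulvidraco, beside 28.2% higher and 27.7% lower among all tested units. Pancreatic acinar markers, 7 Names, summed to 1475 to 3060.3 TPM, 5692 to 7468 TPM and 2452 to 6271 TPM in the same order. The part of either in the complement results was not tested.

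In textbook accounts complement starts along the classical, lectin and alternative routes. In the classical route, C1q binds antibody and activates the proteases C1r and C1s, which cut C4 and C2. In the lectin route, sugar-binding proteins do the same through the proteases MASP1 and MASP2. In the alternative route factor D activates factor B, the catalytic part of an enzyme that cuts C3. All routes cut C3 and then C5, after which C6, C7, C8 and C9 build a pore called the membrane attack complex. Factor I, a protease, inactivates the C3 and C4 fragments on the host's own cells. Bony fish carry several copies of C3 and other components.

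Rows with the same Name were summed, which made 72 units of the 107 rows, namely 30 Names and 42 rows without a Name. These are called genes below. They were tested with limma among 45850 units, on log2(TPM + 1), with a call at an adjusted p under 0.05. Differences are given on that scale as the first line minus the second, ± the standard error, and values of libraries are listed in the order 1, 2 and 3. Leaving out a library of a line outside a comparison does not change the difference. A call lost that way moved through the shared spread and the adjustment alone. A Name did not always go with the description, and rows of 1 protein could lie under several Names or none. The rows were therefore also summed by the described protein into 28 components, a grouping chosen after the data were seen. A sum over fragments of 1 transcript counts it more than once, and 31 rows lay in 13 read clusters of the assembly that held more than 1 member. Close relatives such as the C3 copies may share reads.

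P. fulvidraco 1 and 2 stood apart in the egg yolk protein vitellogenin and the estrogen receptor that induces it. The sum of both was 37013 and 13576 TPM there, 37.2 TPM in P. fulvidraco 3 and at most 4.67 TPM in the other 6 libraries. Its part in the complement results was not tested, and calls that were lost without those libraries are given with their value. Only P. fulvidraco 3 then remains of that line, so that a call can be lost through fewer libraries alone. Macrophage markers, 8 Names, summed to 82.1 to 86.7 TPM in P. vachelli, 497 to 675 TPM in the hybrid and 833 to 974 TPM in P. fulvidraco. Only CD163 among them, a scavenger receptor, was called between the parents, and it made most of that gap, with 4.87, 4.94 and 6.08 TPM in P. vachelli and 765, 874 and 872 TPM in P. fulvidraco. In bulk liver RNA, fewer cells of a type and less RNA per cell cannot be told apart.

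C9, C7, C6 and the regulator factor I were higher in P. vachelli in their described totals, while C5 and factor B were higher in P. fulvidraco. In C9, C5 and factor B the hybrid lay between the parents without overlap. It overlapped P. fulvidraco in C7 and C6 and P. vachelli in factor I. All member rows together made 3.80 to 4.06% of the TPM in P. vachelli libraries, 3.07 to 3.35% in hybrid libraries and 2.83 to 3.07% in P. fulvidraco libraries. Rows of the membrane attack complex made 0.933 to 1.06% in P. vachelli, 0.507 to 0.558% in the hybrid and 0.348 to 0.374% in P. fulvidraco. Early components had the opposite order, with 0.802 to 0.971%, 0.948 to 1.03% and 1.13 to 1.17%, and the libraries of P. vachelli and the hybrid overlapped. Rows of C3 to C5 had the same order as the early ones, with 0.639 to 0.759%, 0.708 to 0.850% and 0.832 to 1.04%, and the hybrid overlapped both parents.

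**Figure D1:**
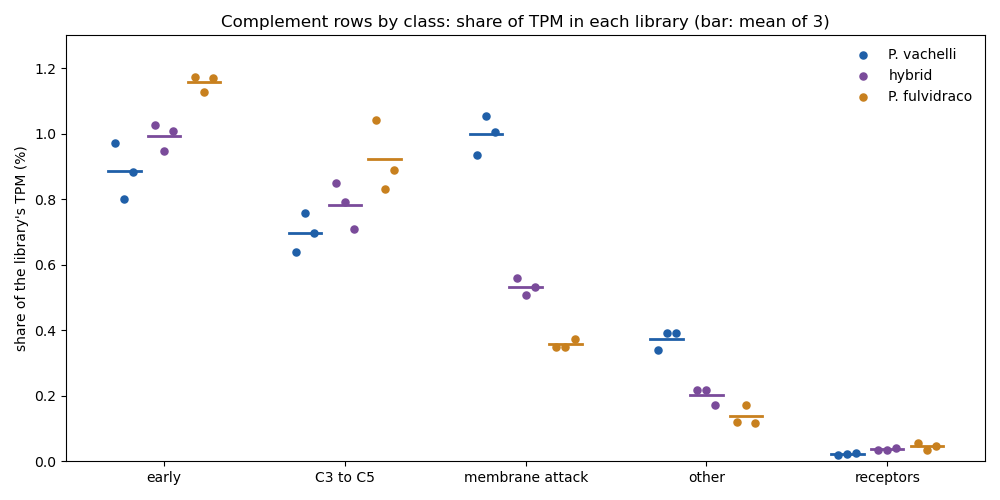
Share of each library's TPM (%, y axis) held by the member rows of 5 classes (x axis). Points are libraries, bars the mean of 3, coloured by line. Membrane attack rows lay at 0.933 to 1.06% in P. vachelli and 0.348 to 0.374% in P. fulvidraco.

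Between the parents, 27 of 72 complement genes were called higher and 25 lower in P. vachelli, with a median difference of 0.043. Of all units, 55.9% were called in this comparison, 28.2% higher and 27.7% lower, with a median of -0.014. Against P. vachelli, 23 genes were higher and 16 lower in the hybrid, beside 30.7% of all units called, 15.8% higher and 14.9% lower. Against P. fulvidraco, 22 were higher and 11 lower in the hybrid, beside 22.3% of all units called, 12.2% higher and 10.1% lower. The comparisons of the hybrid share its libraries, and each parent serves in more than 1 comparison. Fewer genes were called in the last comparison without P. fulvidraco 1 and 2, which leaves 1 library of that line. Of the 28 described components, 11 were higher and 5 lower in P. vachelli than in P. fulvidraco, beside 55.8% of all units called in the same fit (28.2% higher and 27.7% lower). The hybrid had 4 components higher and 6 lower than P. vachelli, beside 30.7% (15.8% higher and 14.9% lower), and 6 higher and 4 lower than P. fulvidraco, beside 22.2% (12.1% higher and 10.1% lower).

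**Figure D2:**
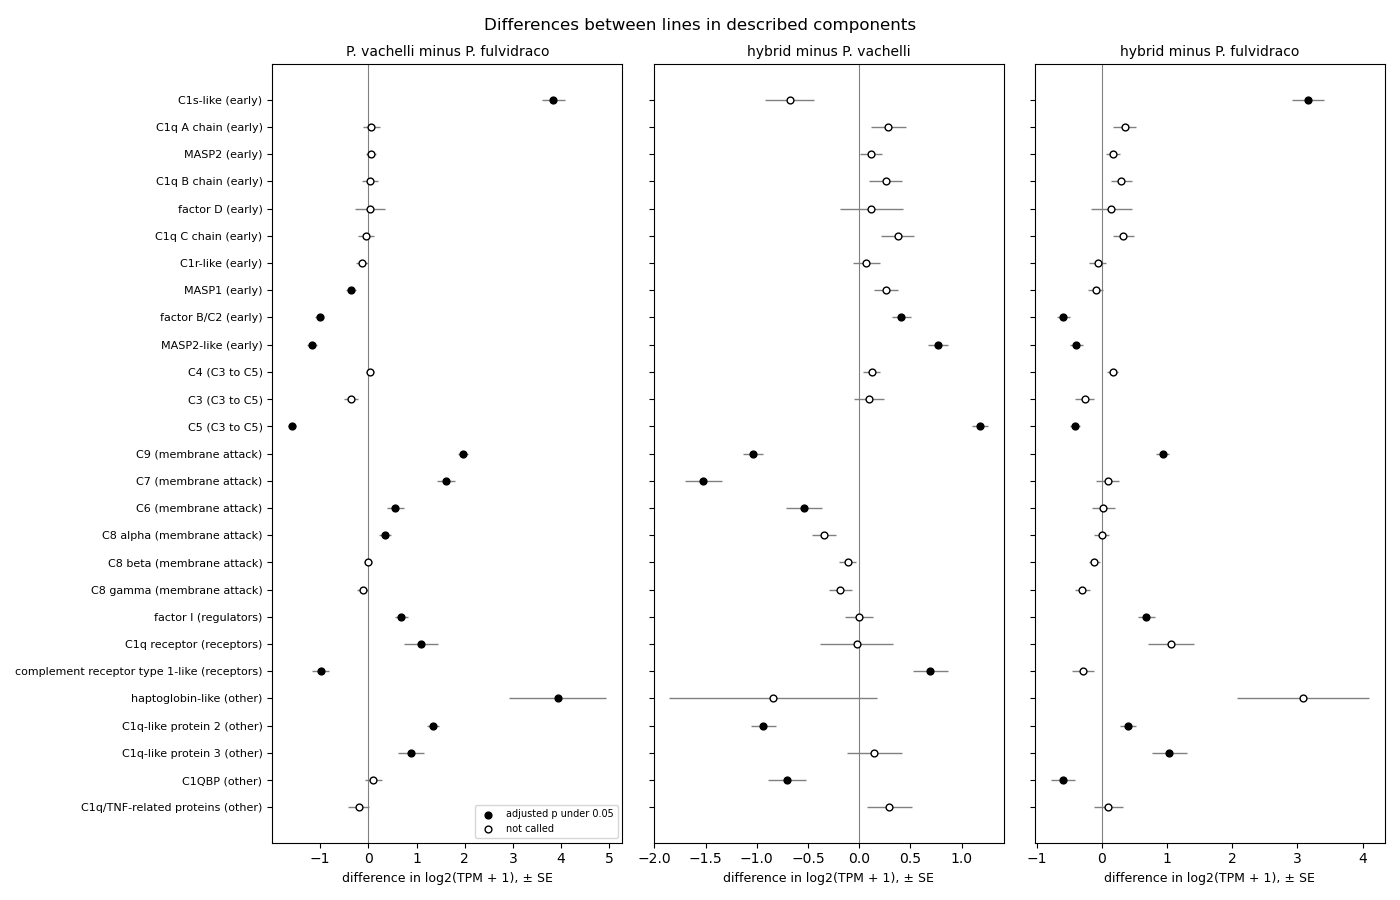
Difference in log2(TPM + 1) (x axis) of the described components, 1 left out (y axis, class in brackets) in 3 comparisons. Points are estimates from limma, lines ± 1 standard error, and filled points have an adjusted p under 0.05. The largest called differences between the parents were those of the haptoglobin-like row and C1s-like rows towards P. vachelli and of C5 (-1.59) towards P. fulvidraco.

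The membrane attack components did not move as a block. C9, C7 and C6 were higher in P. vachelli than in P. fulvidraco, while no difference was called for C8 beta and C8 gamma. C9, which polymerises to form the wall of the pore, had 7379, 8484 and 7907 TPM in P. vachelli, 4115, 3706 and 3745 TPM in the hybrid and 1988, 1980.2 and 2101 TPM in P. fulvidraco. The 3 lines did not overlap, and the hybrid stood between its parents. The mean was 7923 ± 553 TPM (SD, n = 3) in P. vachelli and 2023 ± 67.8 TPM (SD, n = 3) in P. fulvidraco, 3.92 times apart. The difference was 1.97 ± 0.10 (limma adjusted p = 1.07e-06). Against P. vachelli the hybrid differed by -1.04 ± 0.10 (limma adjusted p = 0.000155), and against P. fulvidraco it was higher by 0.93 ± 0.10 (limma adjusted p = 0.000455).

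C7, which anchors the growing complex in the membrane, had 399, 312 and 449 TPM in P. vachelli, 124, 117 and 115 TPM in the hybrid and 97.0, 127 and 146 TPM in P. fulvidraco. Here the hybrid did not lie midway. Its libraries fell within the range of P. fulvidraco and below all of P. vachelli. The difference was 1.64 ± 0.17 (limma adjusted p = 6.81e-05) between the parents and -1.69 ± 0.17 (limma adjusted p = 0.000173) for the hybrid against P. vachelli. For the hybrid against P. fulvidraco it was -0.040 ± 0.17 (limma adjusted p = 0.887).

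C6, the component that joins before C7, had 542, 690.5 and 574 TPM in P. vachelli, 315, 407 and 532 TPM in the hybrid and 418, 372 and 414 TPM in P. fulvidraco. P. vachelli was above P. fulvidraco in every library, and hybrid 3 came close to the P. vachelli range. The difference was 0.58 ± 0.18 (limma adjusted p = 0.022) between the parents and -0.55 ± 0.18 (limma adjusted p = 0.0457) for the hybrid against P. vachelli. The first call was lost without any 1 of P. vachelli 2 and P. fulvidraco 2 (adjusted p = 0.0684 to 0.0786) and without P. fulvidraco 1 and 2 together (adjusted p = 0.177). The second was lost without any 1 of P. vachelli 1, 2 and 3, hybrid 1 and 2 and P. fulvidraco 1, 2 and 3 (adjusted p = 0.0601 to 0.142) and without P. fulvidraco 1 and 2 together (adjusted p = 0.0869). The difference of the hybrid against P. vachelli stayed at -0.55 when P. fulvidraco libraries were left out. In the RefSeq annotation HZAU_Pvac_v1 of P. vachelli, c6 and a c7b gene are neighbours, and so are c8a and c8b.

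C8 has alpha, beta and gamma chains. C8A had 321, 324 and 322 TPM in P. vachelli, 284, 235 and 244 TPM in the hybrid and 219.8, 249 and 299.6 TPM in P. fulvidraco. P. vachelli was above P. fulvidraco in every library, by 0.34 ± 0.12 (limma adjusted p = 0.0362). That call was lost without any 1 of P. vachelli 1, 2 and 3 and P. fulvidraco 1 and 2 (adjusted p = 0.0788 to 0.105) and without P. fulvidraco 1 and 2 together (adjusted p = 0.511). C8B, the beta chain, had 236, 279 and 264 TPM in P. vachelli, 255, 259.9 and 233 TPM in the hybrid and 285, 284 and 275 TPM in P. fulvidraco. C8G, the gamma chain of the lipocalin family, had 411, 409.7 and 457 TPM in P. vachelli, 429, 313 and 391 TPM in the hybrid and 463, 448 and 475 TPM in P. fulvidraco. The parents overlapped in both, and every hybrid library was below every P. fulvidraco library in both, with -0.18 ± 0.082 (limma adjusted p = 0.161) and -0.30 ± 0.12 (limma adjusted p = 0.0959). Differences between the parents were -0.12 ± 0.082 (limma adjusted p = 0.252) and -0.12 ± 0.12 (limma adjusted p = 0.405). Small rows without a Name went with these genes. TRINITY_DN24468_c0_g3, described as C8 beta, had 19.1, 19.0 and 20.5 TPM in P. vachelli, 6.93, 8.32 and 7.90 TPM in the hybrid and 0 in each library of P. fulvidraco, and was called in every pairwise comparison. TRINITY_DN23705_c0_g1, another C8 beta row, had 3.98, 4.49 and 3.11 TPM in P. vachelli, 3.20, 5.82 and 4.95 TPM in the hybrid and 1.85, 1.83 and 1.66 TPM in P. fulvidraco. It was lowest in P. fulvidraco, a call that was lost against P. vachelli without P. vachelli 2 (adjusted p = 0.0505) and without P. fulvidraco 1 and 2 together (adjusted p = 0.088), and against the hybrid without P. fulvidraco 1 and 2 together (adjusted p = 0.117). The C6 row TRINITY_DN22998_c3_g2 had 0, 0 and 1.44 TPM in P. vachelli, 3.33, 4.67 and 1.51 TPM in the hybrid and 4.81, 7.37 and 5.21 TPM in P. fulvidraco. It was lowest in P. vachelli, opposite to the larger C6 rows. The call of the hybrid against P. vachelli was lost without any 1 of P. vachelli 1 and 2 and hybrid 1 and 2 (adjusted p = 0.0628 to 0.0778) and without P. fulvidraco 1 and 2 together (adjusted p = 0.0542). The C9 row TRINITY_DN25339_c0_g2 had 6.43, 8.43 and 6.13 TPM in P. vachelli, 15.7, 7.32 and 8.94 TPM in the hybrid and 2.67, 2.81 and 6.92 TPM in P. fulvidraco. The hybrid was called above P. fulvidraco in it, a call that was lost without any 1 of P. vachelli 1, 2 and 3, hybrid 1 and 3 and P. fulvidraco 1 and 2 (adjusted p = 0.0524 to 0.116) and without P. fulvidraco 1 and 2 together (adjusted p = 0.469). Of the 11 membrane attack genes, 6 were higher and 1 lower in P. vachelli than in P. fulvidraco. The hybrid had 1 higher and 4 lower than P. vachelli, and 4 higher and 0 lower than P. fulvidraco (1 lower at an unadjusted limma p under 0.05). Of all units, 28.2% higher and 27.7% lower were called between the parents, 15.8% higher and 14.9% lower against P. vachelli and 12.2% higher and 10.1% lower against P. fulvidraco. The 11 genes belong to 6 described proteins, so that a protein is counted more than once. By described total, 4 of 6 were higher and 0 lower in P. vachelli than in P. fulvidraco. The hybrid totals were 0 higher and 3 lower than P. vachelli, and 1 higher and 0 lower than P. fulvidraco. In that fit the shares of all units were the same, except 12.1% higher against P. fulvidraco.

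Factor I, the protease that cuts C3b and C4b, gave opposite results by Name and by description. The 4 rows named CFI had 760.5, 967 and 782 TPM in P. vachelli, 1413, 1752 and 1341 TPM in the hybrid and 1384, 1275 and 1526 TPM in P. fulvidraco. By that sum P. vachelli was lower than P. fulvidraco, at -0.74 ± 0.14 (limma adjusted p = 0.00188), and the hybrid was higher than P. vachelli, by 0.84 ± 0.14 (limma adjusted p = 0.00237). Rows TRINITY_DN27403_c4_g1 and TRINITY_DN27403_c4_g2 have no Name but are described as truncated factor I. The first had 1120.0, 1333 and 1200.4 TPM in P. vachelli, 649, 715 and 555 TPM in the hybrid and 0 in each library of P. fulvidraco. The second had 157, 221 and 192 TPM in P. vachelli, 114, 137 and 76.0 TPM in the hybrid and 0, 0.610 and 0 TPM in P. fulvidraco. Both were present in P. vachelli and the hybrid and at or near 0 in P. fulvidraco. With them, the factor I total was 2038, 2521 and 2174 TPM in P. vachelli, 2176, 2604 and 1972 TPM in the hybrid and 1384, 1276 and 1526 TPM in P. fulvidraco. That total was higher in P. vachelli than in P. fulvidraco, by 0.68 ± 0.13 (limma adjusted p = 0.00251), and higher in the hybrid than in P. fulvidraco, by 0.68 ± 0.13 (limma adjusted p = 0.00818). The hybrid against P. vachelli gave 0.00020 ± 0.13 (limma adjusted p = 1). The first call of the total was lost without P. fulvidraco 1 and 2 together (adjusted p = 0.0615), and the second without P. fulvidraco 1 and 2 together (adjusted p = 0.138).

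**Figure D3:**
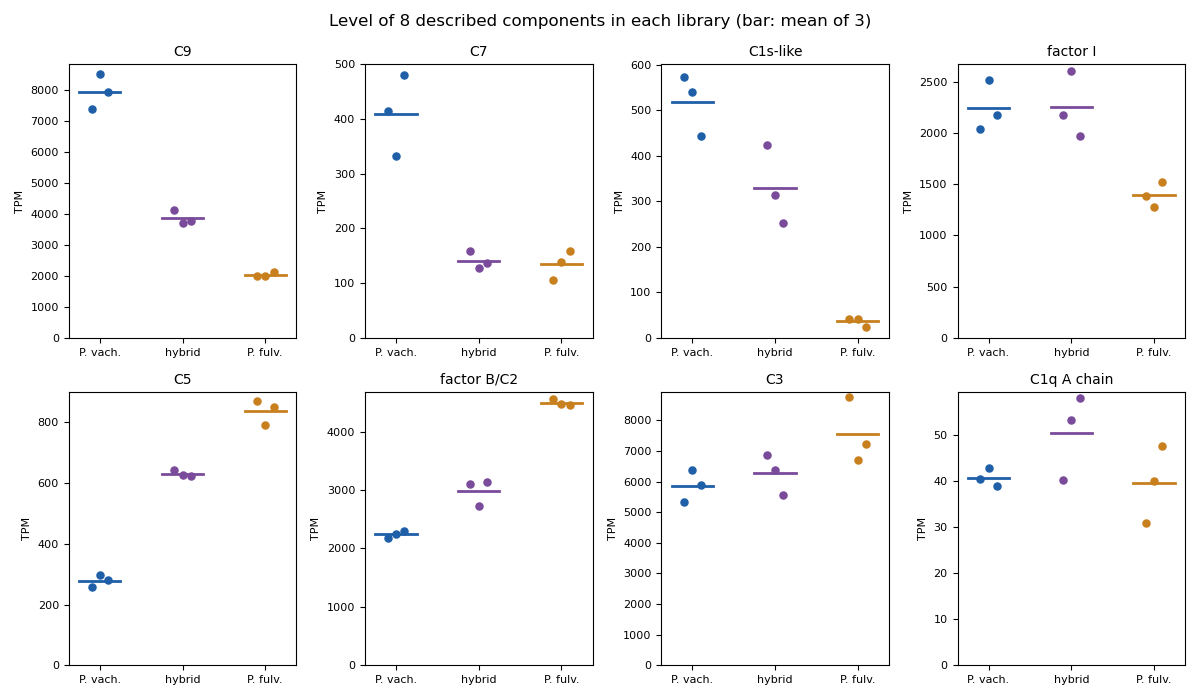
Level in TPM (y axis, linear from 0) of 8 described components in each of 9 libraries by line (x axis). Points are libraries and bars the mean of 3. C9, C7 and C1s-like totals were highest in P. vachelli, C5 and factor B/C2 totals in P. fulvidraco, and the C1q A chain overlapped in all lines.

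C5, from which the anaphylatoxin C5a and the start of the pore are cut, was lower in P. vachelli than in P. fulvidraco. C5 had 257, 294 and 279 TPM in P. vachelli, 625, 613 and 613 TPM in the hybrid and 852, 774 and 827 TPM in P. fulvidraco. The lines did not overlap and the hybrid was nearer to P. fulvidraco. Between the parents the difference was -1.56 ± 0.077 (limma adjusted p = 8.17e-07), and for the hybrid it was 1.16 ± 0.077 (limma adjusted p = 1.71e-05) against P. vachelli and -0.40 ± 0.077 (limma adjusted p = 0.00731) against P. fulvidraco. The last call was lost without P. fulvidraco 1 and 2 together, at -0.42. It was also lost with the largest row named C5 fitted singly, at -0.28 (limma adjusted p = 0.0799).

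C3, the protein on which all routes meet, was among the most abundant members and differed little in sum. The 19 rows named C3 summed to 5095, 6105 and 5632 TPM in P. vachelli, 5998, 5643 and 4919 TPM in the hybrid and 7306, 5361 and 5744 TPM in P. fulvidraco. The lines overlapped, with -0.12 ± 0.15 (limma adjusted p = 0.521) between the parents. All 30 rows described as C3 summed to 5326, 6363 and 5877 TPM in P. vachelli, 6873, 6389 and 5576 TPM in the hybrid and 8758, 6707 and 7217 TPM in P. fulvidraco. These totals did not overlap between the parents, with a difference of -0.36 ± 0.15 (limma adjusted p = 0.0618), which was called without P. fulvidraco 2 (adjusted p = 0.0478). The rows within that sum went in opposite directions. The largest row named C3, fitted singly, was higher in P. vachelli than in P. fulvidraco, by 3.36 (limma adjusted p = 5.26e-06). In that row the hybrid differed by -1.16 from P. vachelli (limma adjusted p = 0.00505) and by 2.20 from P. fulvidraco (limma adjusted p = 0.000293). TRINITY_DN20641_c0_g1, without a Name, had 12.6, 16.2 and 16.6 TPM in P. vachelli, 388, 408 and 242 TPM in the hybrid and 934, 645 and 596 TPM in P. fulvidraco. The hybrid was between the parents, and its call against P. fulvidraco was lost without P. fulvidraco 1 and 2 together (adjusted p = 0.167). TRINITY_DN27089_c0_g5 had 48.5, 40.8 and 28.5 TPM in P. vachelli, 28.7, 36.6 and 30.1 TPM in the hybrid and 6.77, 9.92 and 9.71 TPM in P. fulvidraco, and TRINITY_DN13534_c0_g1 had 37.0, 50.4 and 47.0 TPM in P. vachelli, 13.2, 13.4 and 3.70 TPM in the hybrid and 0 in each library of P. fulvidraco. These 2 were higher in P. vachelli, with 2.02 ± 0.21 (limma adjusted p = 7.52e-05) and 5.50 ± 0.39 (limma adjusted p = 7.52e-06). TRINITY_DN17625_c3_g1 had 37.5, 39.6 and 37.8 TPM in P. vachelli, 236, 102 and 133 TPM in the hybrid and 239, 378 and 509 TPM in P. fulvidraco. TRINITY_DN15398_c4_g4 had 58.7, 64.2 and 70.6 TPM in P. vachelli, 113, 101 and 149 TPM in the hybrid and 147, 174 and 189 TPM in P. fulvidraco. Both were lowest in P. vachelli, at -3.19 ± 0.33 (limma adjusted p = 7.01e-05) and -1.38 ± 0.15 (limma adjusted p = 0.000112), and these 2 rows were added after their values were seen.

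C4, which is cut in the classical and lectin routes, also had parental rows that balanced each other. All 10 rows described as C4 summed to 804, 928 and 799.7 TPM in P. vachelli, 980.4, 887 and 884 TPM in the hybrid and 801, 823 and 831 TPM in P. fulvidraco. The parents overlapped in that total, with 0.041 ± 0.087 (limma adjusted p = 0.706). C4B had 389.7, 421 and 412 TPM in P. vachelli, 573, 515 and 461 TPM in the hybrid and 508, 549 and 541 TPM in P. fulvidraco. It was lower in P. vachelli, at -0.39 ± 0.092 (limma adjusted p = 0.0067), and the hybrid overlapped P. fulvidraco. That call was lost without P. fulvidraco 1 and 2 together (adjusted p = 0.0513), and the call of the hybrid against P. vachelli was lost without any 1 of P. vachelli 1 and 3 and hybrid 1 and 2 (adjusted p = 0.0548 to 0.0806) and under quantile normalization (adjusted p = 0.0938) and median-ratio scaling (adjusted p = 0.0536). The 2 rows named C4 had 23.1, 24.6 and 23.4 TPM in P. vachelli, 188, 179 and 159.9 TPM in the hybrid and 222, 216 and 225 TPM in P. fulvidraco. TRINITY_DN16307_c1_g3 had 0 in each library of P. vachelli, 12.1, 10.3 and 8.51 TPM in the hybrid and 13.2, 13.6 and 9.85 TPM in P. fulvidraco. Both were low or at 0 in P. vachelli. TRINITY_DN13398_c0_g1 had 332, 396 and 299.5 TPM in P. vachelli, 158, 128 and 164 TPM in the hybrid and 0 in each library of P. fulvidraco. TRINITY_DN28041_c2_g2 had 16.2, 21.5 and 18.9 TPM in P. vachelli, 9.77, 11.4 and 6.01 TPM in the hybrid and 0 in each library of P. fulvidraco. These C4 rows were at 0 in P. fulvidraco, and the hybrid was below P. vachelli, with -1.18 ± 0.13 (limma adjusted p = 0.000268) and -1.01 ± 0.22 (limma adjusted p = 0.00894). The call of the rows named C4 for the hybrid against P. fulvidraco was lost without P. fulvidraco 1 and 2 together (adjusted p = 0.118) and under median-ratio scaling (adjusted p = 0.0876). C4A had 42.6, 62.6 and 44.7 TPM in P. vachelli, 32.0, 35.7 and 73.7 TPM in the hybrid and 48.9, 41.1 and 49.4 TPM in P. fulvidraco, with all lines overlapping. Of the 23 genes of C3 to C5, 6 were higher and 14 lower in P. vachelli than in P. fulvidraco. In the hybrid 13 were higher and 3 lower than in P. vachelli, and 6 were higher and 6 lower than in P. fulvidraco. The shares of all units called were 28.2% higher and 27.7% lower, 15.8% higher and 14.9% lower and 12.2% higher and 10.1% lower in the same order. These genes belong to 3 described proteins, so that a protein is counted more than once. Of the 3 described totals, C5 alone was called, in every pairwise comparison.

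Among the early components, the recognition chains of C1q overlapped between the parents, while some proteases of each route differed between lines and others did not pass the test. C1QA had 40.4, 42.9 and 38.9 TPM in P. vachelli, 40.1, 53.2 and 58.0 TPM in the hybrid and 30.9, 40.0 and 47.6 TPM in P. fulvidraco. Rows described as the B and C chains had no Name, with 27.5, 26.5 and 25.2 TPM in P. vachelli, 27.3, 34.1 and 34.6 TPM in the hybrid and 21.0, 24.9 and 32.7 TPM in P. fulvidraco for the B chain. The C chain had 39.1, 39.4 and 35.0 TPM in P. vachelli, 40.1, 55.0 and 54.6 TPM in the hybrid and 32.1, 40.7 and 46.1 TPM in P. fulvidraco. All 3 chains overlapped between every pair of lines except the C chain between the hybrid and P. vachelli, and their differences between the parents were 0.064 ± 0.17 (limma adjusted p = 0.773), 0.036 ± 0.16 (limma adjusted p = 0.86) and -0.052 ± 0.16 (limma adjusted p = 0.798). In mammals C1q is made chiefly by macrophages, unlike most complement proteins. In the RefSeq annotation of P. vachelli, c1qb, c1qc and c1qa lie next to each other. Without hybrid 1, the C chain was called higher in the hybrid than in P. vachelli (adjusted p = 0.0373).

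C1s cuts C4 and C2 once C1r has activated it. The rows described as C1s-like were 2 and were each found in 1 parent. The row named PRSS2 had 574, 540.3 and 443 TPM in P. vachelli, 394, 279 and 225 TPM in the hybrid and 0 in each library of P. fulvidraco. TRINITY_DN18349_c2_g2, of the same read cluster, had 0 in each library of P. vachelli, 29.6, 34.2 and 28.1 TPM in the hybrid and 42.0, 41.8 and 24.7 TPM in P. fulvidraco. The hybrid had both, and the P. vachelli row was by far the larger. The C1s-like total was 3.84 ± 0.24 (limma adjusted p = 3.71e-06) higher in P. vachelli and 3.16 ± 0.24 (limma adjusted p = 5.35e-05) higher in the hybrid, each against P. fulvidraco. For the hybrid against P. vachelli the total gave -0.68 ± 0.24 (limma adjusted p = 0.0628), and it was called without hybrid 1 (adjusted p = 0.0334) and without P. fulvidraco 3 (adjusted p = 0.0278).

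C1r-like rows were 10, with a total of 6283, 4631 and 5467 TPM in P. vachelli, 5815, 5554 and 5715 TPM in the hybrid and 6156, 5658 and 6054 TPM in P. fulvidraco. The lines overlapped in it, and no pairwise comparison was called, with -0.14 ± 0.13 (limma adjusted p = 0.397) between the parents. The Names of most of these rows do not speak of C1r. The row named F9 had 3162, 1859.8 and 2344 TPM in P. vachelli, 2309, 2153 and 2098 TPM in the hybrid and 2766, 2587 and 2771 TPM in P. fulvidraco. It was not called. The C1r-like row named MASP1 had 1245, 1079.8 and 1189.5 TPM in P. vachelli, 849, 901 and 901 TPM in the hybrid and 769.7, 652 and 699 TPM in P. fulvidraco. It was highest in P. vachelli and lowest in P. fulvidraco, with 0.73 (limma adjusted p = 0.000295) between the parents when rows were fitted singly. With the MASP1 row and a MASP2-like row under the same Name, the sum was 1627, 1416 and 1522 TPM in P. vachelli, 1512, 1471 and 1581 TPM in the hybrid and 1571, 1558 and 1638 TPM in P. fulvidraco, and no pairwise comparison was called in it. The row named TMPRSS9 had 1519, 1464 and 1657 TPM in P. vachelli, 1470.5, 1428 and 1493 TPM in the hybrid and 711, 665 and 655 TPM in P. fulvidraco. P. fulvidraco was below the other lines in it, with 1.19 ± 0.081 (limma adjusted p = 5.83e-06) between the parents and 1.11 ± 0.081 (limma adjusted p = 3.8e-05) for the hybrid against P. fulvidraco. Rows of F9, MASP1 and TMPRSS9 lay in 1 read cluster. TRINITY_DN21275_c1_g4 went the other way, with 144, 23.9 and 37.4 TPM in P. vachelli, 902, 818 and 959 TPM in the hybrid and 1527, 1475 and 1646 TPM in P. fulvidraco. TRINITY_DN23426_c1_g1 had 8.77, 8.73 and 11.3 TPM in P. vachelli, 98.0, 95.5 and 96.0 TPM in the hybrid and 256, 159 and 140.0 TPM in P. fulvidraco. Both were lowest in P. vachelli, and the hybrid was between the parents. The call of TRINITY_DN23426_c1_g1 for the hybrid against P. fulvidraco was lost without P. fulvidraco 1 and 2 together (adjusted p = 0.0961), and that of TRINITY_DN21275_c1_g4, not made in the full fit, was made without P. vachelli 1 (adjusted p = 0.0129). C1RA, the row whose Name and description both speak of C1r, had 190.3, 185 and 214 TPM in P. vachelli, 179, 155 and 161 TPM in the hybrid and 123, 117 and 139 TPM in P. fulvidraco. It was lowest in P. fulvidraco, with 0.63 ± 0.097 (limma adjusted p = 0.000666) between the parents and 0.38 ± 0.097 (limma adjusted p = 0.0232) for the hybrid against P. fulvidraco. The latter call was lost without any 1 of hybrid 1 and P. fulvidraco 1 and 2 (adjusted p = 0.0597 to 0.0812) and without P. fulvidraco 1 and 2 together (adjusted p = 0.276). TRINITY_DN16204_c1_g3 was low, with 4.31, 4.43 and 4.13 TPM in P. vachelli, 1.82, 1.38 and 1.73 TPM in the hybrid and 0.180, 0 and 0.0800 TPM in P. fulvidraco.

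The lectin route proteases differed by row. The single row described as MASP1 had 92.4, 81.7 and 76.2 TPM in P. vachelli, 96.8, 99.4 and 104 TPM in the hybrid and 91.3, 113 and 119 TPM in P. fulvidraco. The parents overlapped, with -0.36 ± 0.11 (limma adjusted p = 0.0241), a call that was lost without any 1 of P. vachelli 2 and 3 and P. fulvidraco 2 and 3 (adjusted p = 0.0656 to 0.0858). Rows described as MASP2-like, 2 in number, summed to 376, 327 and 339 TPM in P. vachelli, 619, 531 and 633 TPM in the hybrid and 714, 799 and 826 TPM in P. fulvidraco. P. vachelli was below both other lines. The difference was -1.16 ± 0.10 (limma adjusted p = 2.53e-05) between the parents, 0.77 ± 0.10 (limma adjusted p = 0.000735) for the hybrid against P. vachelli and -0.39 ± 0.10 (limma adjusted p = 0.0242) for the hybrid against P. fulvidraco. The last of these was lost without any 1 of hybrid 2 and P. fulvidraco 2 and 3 (adjusted p = 0.0686 to 0.0747), without P. fulvidraco 1 and 2 together (adjusted p = 0.0882), and under quantile normalization (adjusted p = 0.0661). Rows described as MASP2 itself summed to 82.0, 74.9 and 81.8 TPM in P. vachelli, 79.7, 98.6 and 81.5 TPM in the hybrid and 79.2, 69.7 and 81.2 TPM in P. fulvidraco. They overlapped in all lines, with 0.054 ± 0.10 (limma adjusted p = 0.672) between the parents.

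Factor B, the catalytic part of the alternative C3 convertase, was higher in P. fulvidraco in its described total. CFB had 2127, 2169 and 2249.8 TPM in P. vachelli, 2389.6, 2099.6 and 2449 TPM in the hybrid and 3335, 3219 and 3055 TPM in P. fulvidraco. TRINITY_DN22778_c3_g1, described likewise but without a Name, had 58.0, 71.4 and 55.6 TPM in P. vachelli, 719.6, 631 and 687 TPM in the hybrid and 1227, 1255 and 1396 TPM in P. fulvidraco. P. fulvidraco was above both other lines in each. The largest row named CFB, fitted singly, gave -0.26 between the parents and was not called (limma adjusted p = 0.0754). The total of 4 rows described as factor B or C2 differed by -1.0 ± 0.093 (limma adjusted p = 3.86e-05) between the parents. The hybrid differed from P. vachelli by 0.41 ± 0.093 (limma adjusted p = 0.0106) and from P. fulvidraco by -0.59 ± 0.093 (limma adjusted p = 0.00312). By Name alone, the call of CFB against P. fulvidraco was lost without P. fulvidraco 1 and 2 together (adjusted p = 0.107). CFD, the protease that activates factor B, had 7.50, 13.3 and 7.62 TPM in P. vachelli, 6.37, 9.84 and 15.8 TPM in the hybrid and 10.6, 7.82 and 8.73 TPM in P. fulvidraco, which overlapped in all lines. Of the 19 early genes, 6 were higher and 5 lower in P. vachelli than in P. fulvidraco, beside 55.9% of all units called. The hybrid had 4 higher and 3 lower than P. vachelli, beside 30.7%, and 5 higher and 3 lower than P. fulvidraco, beside 22.3%. Among these genes, the sum named MASP2 also holds the haptoglobin-like row named Masp2. That sum was called higher in the hybrid than in P. fulvidraco. Rows described as MASP2 gave 0.17 ± 0.10 there (limma adjusted p = 0.273). The 10 early described totals leave that row out. Of them, 1 was higher and 3 lower in P. vachelli than in P. fulvidraco, beside 55.8% of all units. The hybrid totals were 2 higher and 0 lower than P. vachelli (30.7%), and 1 higher and 2 lower than P. fulvidraco (22.2%).

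Rows of complement receptors were few and mostly low. Rows described as complement receptor type 1-like carried the Names C3L, SELE and CR2. C3L had 98.1, 132 and 143 TPM in P. vachelli, 255, 248 and 265 TPM in the hybrid and 411, 261 and 307 TPM in P. fulvidraco. SELE had 94.0, 93.2 and 104 TPM in P. vachelli, 90.5, 78.1 and 119 TPM in the hybrid and 129, 70.6 and 133 TPM in P. fulvidraco. Only C3L of these 2 separated the parents, with -1.38 ± 0.18 (limma adjusted p = 0.000285). CR2 among the members had 2.16, 4.06 and 3.08 TPM in P. vachelli, 1.38, 2.12 and 3.36 TPM in the hybrid and 0.920, 1.16 and 1.93 TPM in P. fulvidraco. Its call towards P. vachelli, 0.81 ± 0.30 (limma adjusted p = 0.0453), was lost without any 1 of P. vachelli 2 and 3, hybrid 2 and P. fulvidraco 1 and 2 (adjusted p = 0.0583 to 0.15) and without P. fulvidraco 1 and 2 together (adjusted p = 0.43). What carried the Name CR2 outside the members was far more abundant. It had 121, 162 and 174 TPM in P. vachelli, 129, 127 and 116 TPM in the hybrid and 175, 95.8 and 162 TPM in P. fulvidraco. The parents overlapped in it, with 0.11 ± 0.22 (limma adjusted p = 0.692). TRINITY_DN16573_c0_g1 had 0.680, 1.70 and 1.42 TPM in P. vachelli, 10.4, 11.3 and 11.7 TPM in the hybrid and 19.7, 12.8 and 15.7 TPM in P. fulvidraco, with -2.92 ± 0.21 (limma adjusted p = 8.68e-06). The total of the 4 rows differed by -0.99 ± 0.17 (limma adjusted p = 0.00134) between the parents and by 0.70 ± 0.17 (limma adjusted p = 0.0158) between the hybrid and P. vachelli, and the latter call was lost without P. vachelli 1 (adjusted p = 0.0585). FBN3, described as a C1q receptor, had 2.07, 2.57 and 2.10 TPM in P. vachelli, 1.08, 1.61 and 1.25 TPM in the hybrid and 0.270, 0.320 and 0.260 TPM in P. fulvidraco. It was lowest in P. fulvidraco, and its call for the hybrid against P. fulvidraco was lost without P. fulvidraco 1 and 2 together (adjusted p = 0.14) and under quantile normalization (adjusted p = 0.078).

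The wording of the rule also brought in proteins that carry a C1q domain without being part of C1. TRINITY_DN14621_c0_g1, described as C1q-like protein 2, had 2472, 2802 and 2866 TPM in P. vachelli, 1068, 1277 and 921 TPM in the hybrid and 0.250, 0.160 and 0.430 TPM in P. fulvidraco. TRINITY_DN16516_c1_g2, with the same description, had 369, 455 and 348 TPM in P. vachelli, 535, 509.5 and 566 TPM in the hybrid and 1149, 1427 and 1126 TPM in P. fulvidraco. The first was below 1 TPM in P. fulvidraco and the second was highest there. Their sum was higher in P. vachelli than in P. fulvidraco, by 1.34 ± 0.12 (limma adjusted p = 3.72e-05). The call of TRINITY_DN16516_c1_g2 for the hybrid against P. vachelli was lost without any 1 of P. vachelli 1 and 3 and hybrid 1 and 3 (adjusted p = 0.059 to 0.0895) and under quantile normalization (adjusted p = 0.0809). C1QL1 had 14.2, 13.2 and 12.0 TPM in P. vachelli, 11.4, 15.1 and 18.3 TPM in the hybrid and 4.03, 7.45 and 9.60 TPM in P. fulvidraco. P. fulvidraco was below P. vachelli and the hybrid, with calls that were lost without any 1 of P. vachelli 1 and 2 (adjusted p = 0.0547 to 0.0633) and without P. fulvidraco 1 and 2 together (adjusted p = 0.231) in the first case and without any 1 of hybrid 2 and 3 and P. fulvidraco 2 (adjusted p = 0.0561 to 0.0741) and without P. fulvidraco 1 and 2 together (adjusted p = 0.223) in the second. TRINITY_DN10047_c0_g3, a C1q and tumor necrosis factor-related protein, had 0 in each library of P. vachelli, 1.47, 1.42 and 5.42 TPM in the hybrid and 2.35, 3.44 and 3.35 TPM in P. fulvidraco. Of the same family, C1QTNF1 overlapped in all lines. C1QTNF5 was higher in every P. vachelli library than in every P. fulvidraco library, a difference that was not called, at 0.22 ± 0.18 (limma adjusted p = 0.338). A row named Masp2 but described as haptoglobin-like had 526, 606 and 657 TPM in P. vachelli, 543, 362 and 186 TPM in the hybrid and 23.9, 257 and 8.37 TPM in P. fulvidraco. P. fulvidraco 2 was far above the other P. fulvidraco libraries in it. The parents differed by 3.92 ± 1.01 (limma adjusted p = 0.01), and the hybrid was called above P. fulvidraco without P. fulvidraco 2 (adjusted p = 0.00156).

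C1QBP, a mitochondrial protein that also binds the heads of C1q, was the single one of the 72 genes called outside the range of both parents. It had 20.2, 14.3 and 24.1 TPM in P. vachelli, 10.6, 11.4 and 12.0 TPM in the hybrid and 17.9, 20.3 and 15.2 TPM in P. fulvidraco. Every hybrid library was below every library of the parents. Calls outside both parents were not counted over all units, so that the count among the 72 genes has no share beside it. The hybrid differed by -0.71 ± 0.18 (limma adjusted p = 0.0197) from P. vachelli and by -0.60 ± 0.18 (limma adjusted p = 0.0474) from P. fulvidraco. The first call was lost without any 1 of P. vachelli 1 and 3 and hybrid 1 (adjusted p = 0.0587 to 0.0652). The second was lost without any 1 of P. vachelli 1, hybrid 1, 2 and 3 and P. fulvidraco 1, 2 and 3 (adjusted p = 0.0516 to 0.144), without P. fulvidraco 1 and 2 together (adjusted p = 0.398), and under quantile normalization (adjusted p = 0.0665) and median-ratio scaling (adjusted p = 0.0523).

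Many of the opposing rows were found in 1 parent or were far higher in it than in the other. A row was counted as a P. vachelli form where each P. vachelli library had at least 1 TPM and the P. vachelli mean was at least 20 times that of P. fulvidraco, and as a P. fulvidraco form in the reverse case. Of the 107 rows, 16 were P. vachelli forms, 19 were P. fulvidraco forms and 72 were shared. Of all 51225 tested rows, 10.3% and 9.94% were such forms, beside 15.0% and 17.8% of the complement rows. An allele whose sequence was assembled as a row of its own and a gene active only or mainly in 1 species cannot be told apart here. In the hybrid, which received a genome from each parent, the P. vachelli forms were at a median of 0.522 of the level in P. vachelli, with a range of 0.226 to 1.69. The P. fulvidraco forms were at a median of 0.576 of the level in P. fulvidraco, with a range of 0.390 to 1.14. Among all tested rows the medians were 0.355 and 0.466. Of the complement forms, 14 of 16 and 18 of 19 had at least 1 TPM in every hybrid library, beside 1820 of 5267 and 2332 of 5091 among all tested rows. The levels of complement rows and of all rows were not matched for these medians and counts. These counts and levels are descriptions with no test.

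**Figure D4:**
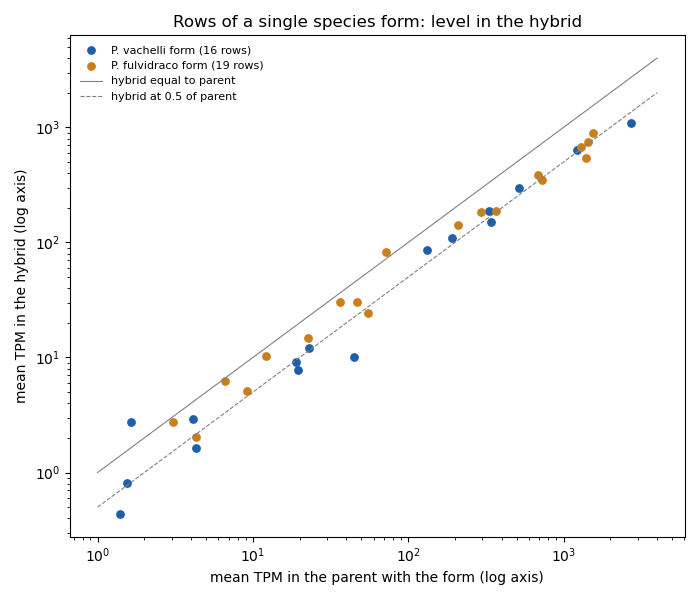
Mean TPM in the hybrid (y axis, log scale) of each of the 35 rows of a single species form against the mean TPM in the parent that has the form (x axis, log scale). Points are rows, coloured by form, with lines at the parental level and at 0.5 of it. The points lie mostly about the lower line, with medians of 0.522 for P. vachelli forms and 0.576 for P. fulvidraco forms.

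Within a component the forms took unlike shares. P. vachelli forms made 82.8 to 83.8% of the factor I total in P. vachelli and 42.2 to 48.8% in the hybrid. Of the C1s-like total in the hybrid, the P. vachelli form made 88.9 to 93.0%. In C4, P. vachelli forms made 16.1 to 19.5% and P. fulvidraco forms 14.7 to 18.3% of the hybrid total. Forms of both parents thus took like shares in C4, while that of P. vachelli made most of C1s-like. P. fulvidraco forms made 52.6 to 55.3% of the C3 total in P. fulvidraco and 26.3 to 34.6% in the hybrid. For factor B/C2 they made 43.2 to 44.9% in P. fulvidraco and 31.9 to 38.0% in the hybrid. The membrane attack class held 1 P. vachelli form and 0 P. fulvidraco forms among 15 rows, so that C9 and C7 differed between the parents within shared rows.

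**Figure D5:**
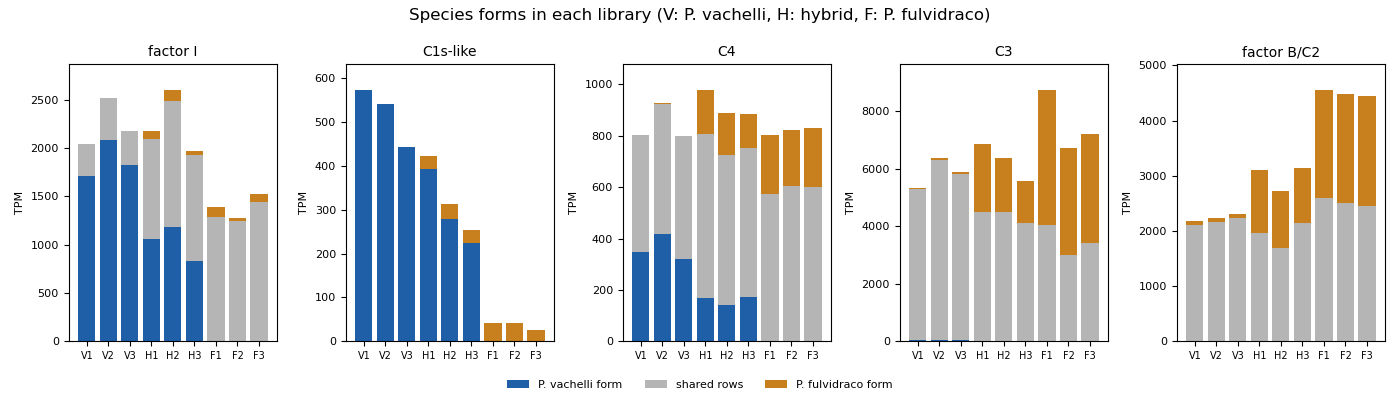
Level in TPM (y axis, linear from 0) of P. vachelli forms, shared rows and P. fulvidraco forms, stacked, in each of the 9 libraries (x axis) for 5 described components. The hybrid bars hold forms of both parents in C1s-like, C3, C4 and factor I, with at most 0.225% from P. vachelli forms in C3. The largest row named C3, higher in P. vachelli by 3.36 when fitted singly, did not reach the limit of 20 times and is drawn as shared.

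The hybrid mean lay between the parental means in 49 of 72 genes (68.1%), beside 64.1% of all units. It lay above both parents in 13 and below both in 10, beside 8764 and 7674 of 45850 units. Of the 72 genes, C1QBP alone was called outside both parents, and such calls were not counted over all units. Of the 28 components, 14 lay between. Against the mid-parent on the log scale, 22 genes were higher and 2 lower in the hybrid, beside 8.54% of all units called, 5.61% higher and 2.93% lower. For a row found in 1 parent the log mid-parent lies far below the arithmetic mean. Against the arithmetic mid-parent, 3 genes were higher and 3 lower, beside 5.87% of all units called, 1.62% higher and 4.25% lower. The higher ones were TMPRSS9, the rows named C4 and TRINITY_DN28041_c2_g3, a C4 row. The lower ones were C7, C1QBP and TRINITY_DN16516_c1_g2. By described component, 2 were higher and 2 lower on the log scale, beside 8.49% of all units, 5.56% higher and 2.93% lower. Against the arithmetic mid-parent 0 components were higher (3 at an unadjusted limma p under 0.05) and 2 lower, namely C7 at -0.93 ± 0.16 (limma adjusted p = 0.0162) and C1QBP at -0.66 ± 0.16 (limma adjusted p = 0.0493), beside 5.86% of all units, 1.62% higher and 4.25% lower. C7 thus lay below the mean of its parents on both scales, and its log-scale call was lost without any 1 of P. vachelli 1 and 3, hybrid 2 and 3 and P. fulvidraco 2 (adjusted p = 0.0507 to 0.0935). The log-scale call of C1QBP was lost without any 1 of P. vachelli 1 and 3, hybrid 1, 2 and 3 and P. fulvidraco 1 and 2 (limma adjusted p = 0.0641 to 0.119). It was also lost with the replicate block (limma adjusted p = 0.083).

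Other genes of the pathway, 25 Names matched from a list of 55 symbols, included both directions. Between the parents 7 were higher and 4 lower in P. vachelli, with a median of 0.055. The hybrid had 4 higher and 5 lower than P. vachelli, and 4 higher and 1 lower than P. fulvidraco. Of all units, 55.9%, 30.7% and 22.3% were called in these comparisons. The inhibitors went in both directions, and SUSD4, a membrane inhibitor, was lower in P. vachelli than in P. fulvidraco, at -0.57 ± 0.14 (limma adjusted p = 0.0072), as was CD46, at -1.07 ± 0.19 (limma adjusted p = 0.00136), both named after their values were seen. C4BPA, an inhibitor of the C4b convertase, had 13.9, 15.3 and 12.1 TPM in P. vachelli, 4.96, 5.05 and 7.68 TPM in the hybrid and 1.73, 2.34 and 2.05 TPM in P. fulvidraco. VTN, vitronectin, which blocks insertion of the pore, had 1611, 1519.7 and 1762 TPM in P. vachelli, 1055, 1044 and 1166 TPM in the hybrid and 906, 1023 and 1068 TPM in P. fulvidraco. Both were higher in P. vachelli than in either other line, by 2.28 ± 0.19 (limma adjusted p = 1.74e-05) and 0.71 ± 0.099 (limma adjusted p = 0.000402) against P. fulvidraco. CLU, clusterin, another inhibitor of the pore, had 313, 425 and 351 TPM in P. vachelli, 289, 365 and 335 TPM in the hybrid and 217, 164 and 151 TPM in P. fulvidraco. It was lowest in P. fulvidraco, and the hybrid overlapped P. vachelli. CPN2, a subunit of the carboxypeptidase that trims anaphylatoxins, had 68.7, 66.3 and 66.7 TPM in P. vachelli, 68.5, 65.0 and 66.8 TPM in the hybrid and 49.7, 50.0 and 61.2 TPM in P. fulvidraco. Its calls were lost without P. fulvidraco 2 (adjusted p = 0.0528) and without P. fulvidraco 1 and 2 together (adjusted p = 0.253) between the parents and without any 1 of P. vachelli 1, 2 and 3, hybrid 1, 2 and 3 and P. fulvidraco 1 and 2 (adjusted p = 0.0562 to 0.121) and without P. fulvidraco 1 and 2 together (adjusted p = 0.408) for the hybrid against P. fulvidraco.

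COLEC10, a collectin that starts the lectin route, had 87.4, 117 and 108 TPM in P. vachelli, 49.9, 59.4 and 81.5 TPM in the hybrid and 34.6, 36.9 and 39.6 TPM in P. fulvidraco. It was higher in P. vachelli than in P. fulvidraco, by 1.46 ± 0.18 (limma adjusted p = 0.000186), and the hybrid stood between. Its call for the hybrid was lost against P. vachelli without any 1 of P. vachelli 2 and 3 (adjusted p = 0.0517 to 0.0562), and against P. fulvidraco without any 1 of P. fulvidraco 1 and 2 (adjusted p = 0.0571 to 0.0594) and without P. fulvidraco 1 and 2 together (adjusted p = 0.217). CFP, properdin, which stabilises the alternative convertase, had 123, 115 and 135 TPM in P. vachelli, 184, 178 and 176 TPM in the hybrid and 199.7, 170.3 and 183 TPM in P. fulvidraco. It was lower in P. vachelli, at -0.56 ± 0.087 (limma adjusted p = 0.000674). PROS1, protein S, which binds C4b-binding protein in mammalian plasma, had 64.5, 70.2 and 67.0 TPM in P. vachelli, 57.7, 57.6 and 64.0 TPM in the hybrid and 68.8, 82.7 and 93.4 TPM in P. fulvidraco. The hybrid was called below P. fulvidraco, a call that was lost without any 1 of hybrid 1 and 2 and P. fulvidraco 2 and 3 (adjusted p = 0.0671 to 0.0778). Against P. fulvidraco, the call of C4BPA in the hybrid was lost without P. fulvidraco 1 and 2 together (adjusted p = 0.0576).

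Transcription factors and acute-phase proteins known to go with complement expression in liver, 33 Names of a list of 46 symbols, were mixed. In P. vachelli 10 were higher and 8 lower than in P. fulvidraco, with a median of 0.017. The hybrid had 4 higher and 7 lower than P. vachelli, and 6 higher and 4 lower than P. fulvidraco, beside 55.9%, 30.7% and 22.3% of all units called. STAT3, which carries interleukin 6 signals, had 6.71, 7.56 and 8.12 TPM in P. vachelli, 5.82, 3.77 and 4.22 TPM in the hybrid and 2.02, 2.11 and 2.40 TPM in P. fulvidraco. Rows named STAT3.1 had 12.8, 16.6 and 14.5 TPM in P. vachelli, 3.48, 4.23 and 5.47 TPM in the hybrid and 2.84, 1.83 and 2.06 TPM in P. fulvidraco. Both were highest in P. vachelli and lowest in P. fulvidraco, with 1.41 ± 0.17 (limma adjusted p = 0.000198) and 2.27 ± 0.19 (limma adjusted p = 2.22e-05) between the parents. HNF4A, a main hepatocyte factor, had 65.4, 74.8 and 64.8 TPM in P. vachelli, 98.0, 128 and 130.0 TPM in the hybrid and 137, 135 and 142 TPM in P. fulvidraco. IRF8, a factor of myeloid cells, had 1.66, 1.59 and 1.75 TPM in P. vachelli, 4.04, 3.43 and 5.10 TPM in the hybrid and 5.63, 4.86 and 7.22 TPM in P. fulvidraco. Both were lowest in P. vachelli, at -1.01 ± 0.12 (limma adjusted p = 0.000139) and -1.36 ± 0.19 (limma adjusted p = 0.000399). For the hybrid, the call of STAT3 was lost against P. vachelli without any 1 of P. vachelli 1, 2 and 3 and hybrid 2 and 3 (adjusted p = 0.051 to 0.0998) and without P. fulvidraco 1 and 2 together (adjusted p = 0.051) and against P. fulvidraco without P. fulvidraco 1 and 2 together (adjusted p = 0.157). Against P. fulvidraco, STAT3.1 lost its call without any 1 of hybrid 2 and 3 and P. fulvidraco 2 and 3 (adjusted p = 0.0595 to 0.0886) and without P. fulvidraco 1 and 2 together (adjusted p = 0.121).

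Of the acute-phase proteins, HPX, hemopexin, which binds free heme, had 4094, 5697 and 4125 TPM in P. vachelli, 23018, 26580.0 and 22479 TPM in the hybrid and 10276, 12035 and 15574 TPM in P. fulvidraco. It was highest in the hybrid, with 2.39 ± 0.20 (limma adjusted p = 6.88e-05) against P. vachelli and 0.95 ± 0.20 (limma adjusted p = 0.0117) against P. fulvidraco. The latter call was lost without P. fulvidraco 1 and 2 together (adjusted p = 0.17) and under quantile normalization (adjusted p = 0.319). FGA, the fibrinogen alpha chain, had 5062, 5903 and 5832 TPM in P. vachelli, 3601, 3669.7 and 3512 TPM in the hybrid and 4493, 4283 and 4359 TPM in P. fulvidraco. FGB, the beta chain, had 8987, 10354 and 10242 TPM in P. vachelli, 6977, 6944 and 7342 TPM in the hybrid and 11954, 10402 and 9684 TPM in P. fulvidraco. Both were lower in the hybrid than in either parent in every library, with -0.64 ± 0.10 (limma adjusted p = 0.00216) and -0.47 ± 0.13 (limma adjusted p = 0.0252) against P. vachelli. The call of FGB was lost without any 1 of P. vachelli 2 and 3 and hybrid 1 (adjusted p = 0.0551 to 0.0943) and under median-ratio scaling (adjusted p = 0.0676). Against P. fulvidraco, FGA gave -0.28 ± 0.10 (limma adjusted p = 0.0798), and the call of FGB was lost without P. fulvidraco 1 and 2 together (adjusted p = 0.126). Between the parents the call of FGA was lost without any 1 of P. vachelli 2 and 3 (adjusted p = 0.0675 to 0.0693) and without P. fulvidraco 1 and 2 together (adjusted p = 0.0794). AHSG, fetuin, had 5711, 5925 and 6223 TPM in P. vachelli, 6432, 6355 and 7287 TPM in the hybrid and 4203, 4079.6 and 5088 TPM in P. fulvidraco. It was lowest in P. fulvidraco, with calls that were lost without any 1 of P. vachelli 2 and 3 and P. fulvidraco 2 (adjusted p = 0.0528 to 0.0698) and without P. fulvidraco 1 and 2 together (adjusted p = 0.246) against P. vachelli and without P. fulvidraco 1 and 2 together (adjusted p = 0.151) against the hybrid.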

How the data were processed

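The authors deposited TPM for each assembled gene in each library, and the library sums ran from 999999.5 to 1000001.6. Cutadapt and FastQC are named in the submitters' processing notes, without versions, and the row identifiers are of the Trinity kind per the file headers. The quantifier is not given in the sources used here, nor is the origin of the Names, and the depth is unknown. All 9 columns were matched to samples by title.

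Members, lists and the rule for named genes were chosen with earlier results of these data known. Values in every library are given for the 3 Names of highest mean TPM in each class and up to 4 with the smallest adjusted p in each comparison, and for up to 5 of each list. Rows with at least 1 TPM in 3 libraries were summed by Name ignoring case, member rows apart from others. The fit was limma 3.58.1 (R 4.3.3) with an intensity trend on log2(TPM + 1), 9 libraries, 6 residual degrees of freedom, two-sided, Benjamini-Hochberg adjusted over all units. On this scale changes of low rows are understated. It was tested on simulated data. An exact permutation test of 3 against 3 cannot go below 0.1. Correlations between libraries of a line ran from 0.851, of hybrid 1 with hybrid 3, to 0.937, and all 9 were kept. Names of 18 of 30 named genes were in RefSeq's table of P. vachelli, used for neighbours alone, and no sequence was used. Some member rows, 1 described component and some list genes entered the counts but are not reported here by name. Alternatives were quantile and median-ratio scaling, pseudocounts of 0.1 and 5, filters of 5 TPM or none, no trend, the compared lines alone, a replicate block, a minimum log2 difference of 1, exact spelling, single rows, an arithmetic mid-parent, each library left out, and P. fulvidraco 1 and 2 left out.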

Additional observations from a re-analysis of the deposited data

How the results depend on the processing

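Of 224 recomputed counts of called genes, 195 stayed within 1.5 times the reported one. Summing by described component, chosen after the data were seen, gave 16 calls of 28 for the parents. In the hybrid it gave 10 against P. vachelli, 10 against P. fulvidraco and 4 against the mid-parent. With a minimum absolute log2 difference of 1, complement genes gave 21 calls for the hybrid against P. fulvidraco and 15 against the mid-parent. Pathway genes then gave 4, 1 and 1 in the 3 pairwise comparisons, in the order parents, P. vachelli, P. fulvidraco, and regulator genes 8, 2 and 1. The arithmetic mid-parent gave 6. Without P. fulvidraco 1 and 2, calls against P. fulvidraco were 18 complement, 2 pathway and 0 regulator genes for the hybrid (10 of the last at an unadjusted limma p under 0.05), and 8 regulator genes for P. vachelli. Names summed by exact spelling gave 8 pathway genes against P. fulvidraco and 17 regulator genes against P. vachelli. Fitting only the compared groups gave 3 pathway and 4 regulator genes for the hybrid against P. fulvidraco, and no intensity trend gave 3 pathway genes. The cause of these shifts was not tested.

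Leaving out 1 library gave 45 to 54 complement calls for the parents and, in the hybrid, 32 to 39 against P. vachelli, 26 to 31 against P. fulvidraco and 19 to 24 against the mid-parent. For pathway genes it gave 10 to 13, 4 to 9 and 2 to 5, and for regulator genes 12 to 18, 6 to 13 and 5 to 9, in the order parents, P. vachelli, P. fulvidraco. Shares of all units called are given for the described components and the arithmetic mid-parent, but not for the other settings of this section. Those counts therefore do not show whether complement genes moved apart from all units.

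Some results turned direction. The largest single row of C3 gave 3.36 between the parents and 2.20 for the hybrid against P. fulvidraco. C9 against the mid-parent gave 0.34 by exact spelling and 0.34 as a single row. MASP1 between the parents gave 0.62 by exact spelling and 0.73 as a single row. Its hybrid values were -0.35 and -0.40 against P. vachelli and, as a single row, 0.32 against P. fulvidraco. The arithmetic mid-parent turned TRINITY_DN13398_c0_g1 to -0.19, TRINITY_DN14621_c0_g1 to -0.33, TRINITY_DN20641_c0_g1 to -0.11, TRINITY_DN24468_c0_g3 to -0.31 and TRINITY_DN28041_c2_g2 to -0.085. The Names C3, C9 and MASP1 hold unlike rows by construction. The TRINITY rows are single rows, far lower in 1 parent, for which the log mid-parent lies far below the arithmetic mean.

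Same-numbered libraries of the lines correlated at -0.13 to 0.013 in their deviations and other pairs at -0.050 to 0.078. So few libraries per line cannot tell whether same-numbered libraries were handled together, and the reported fit took them as unpaired. With the replicate block, 51, 38 and 30 complement genes were called in the pairwise comparisons and 20 against the mid-parent. The block ended the calls of C6 for the hybrid against P. vachelli (adjusted p = 0.0539), C8A between the parents (adjusted p = 0.0593) and C1QBP for the hybrid against P. fulvidraco (adjusted p = 0.0853), among others, and called the C1s-like total for the hybrid against P. vachelli (adjusted p = 0.00886). Quantile normalization called 5695 units higher and 7593 lower for the hybrid against P. vachelli, where the reported fit had 7241 and 6849, and for the hybrid against P. fulvidraco 4341 and 4889 in place of 5577 and 4636. TPM keep no depth, so that no limit from counting can be given for low rows.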

Other observations

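Further genes of the lists, outside the rule for named genes and chosen after their values were seen, showed an order of the lines that differed by gene. APCS, a pentraxin that can bind C1q, had 1624, 1946 and 1728 TPM in P. vachelli, 1206, 1584 and 1098 TPM in the hybrid and 1198, 1175 and 1377 TPM in P. fulvidraco. P. vachelli was above both other lines, with 0.50 ± 0.15 (limma adjusted p = 0.0181) against P. fulvidraco and -0.46 ± 0.15 (limma adjusted p = 0.0428) for the hybrid against P. vachelli. CD46, a cofactor of factor I on cell surfaces in mammals, had 42.2, 66.5 and 49.3 TPM in P. vachelli, 88.0, 107 and 70.9 TPM in the hybrid and 121, 105 and 104 TPM in P. fulvidraco. P. vachelli had the lowest level, with -1.07 ± 0.19 (limma adjusted p = 0.00136) between the parents.

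IL6R, the interleukin 6 receptor, had 169, 133 and 165 TPM in P. vachelli, 105, 89.1 and 154 TPM in the hybrid and 63.6, 69.1 and 83.7 TPM in P. fulvidraco. It was higher in P. vachelli than in P. fulvidraco, by 1.10 ± 0.20 (limma adjusted p = 0.00162), as were the STAT3 rows. CEBPA, a hepatocyte transcription factor, had 12.6, 14.0 and 20.1 TPM in P. vachelli, 15.1, 30.3 and 30.6 TPM in the hybrid and 50.4, 53.1 and 45.4 TPM in P. fulvidraco. It was lower in P. vachelli, at -1.63 ± 0.27 (limma adjusted p = 0.000956), as was HNF4A. The call of APCS between the parents was lost without any 1 of P. vachelli 2 and P. fulvidraco 2 (adjusted p = 0.0575 to 0.0662) and without P. fulvidraco 1 and 2 together (adjusted p = 0.233). The call of APCS for the hybrid against P. vachelli was lost without any 1 of P. vachelli 1, 2 and 3, hybrid 1 and 3 and P. fulvidraco 1 and 2 (adjusted p = 0.0524 to 0.133), without P. fulvidraco 1 and 2 together (adjusted p = 0.0678), and under median-ratio scaling (adjusted p = 0.0881). The call of IL6R between the parents was lost without P. fulvidraco 1 and 2 together (adjusted p = 0.0575).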
